A study of Homo sapiens with 2 samples.

Results

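The genes described here are 42 genes of TGF-beta and BMP signalling, taken by symbol from the 58735 genes of the deposited tables, and all 42 were found. They were compared between 2 libraries, 1 per condition, from MAEL WT and MAEL KO PLC8024 cells, an epithelial hepatoma line that the labels call 8024 or Alexander cells and that the paper also names PLC/PRF/5. MAEL WT cells carried the unedited gene and were labelled non-treated, and MAEL KO cells had received MAEL-targeting sgRNA with Cas9, were sorted by mCherry and grown from single cells, so the knockout library may stand for a single clone. The labels name no ligand of the TGF-beta family added to either culture.

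TGF-beta family ligands are secreted as dimers, and the TGF-betas are stored in the matrix bound to latent TGF-beta binding proteins. A ligand joins a type II and a type I receptor kinase, and the type I kinase phosphorylates a receptor SMAD, which enters the nucleus with SMAD4. TGF-beta and Nodal signal mainly through SMAD2 and SMAD3, whereas BMPs signal through SMAD1, SMAD5 and SMAD9 and switch on the ID genes. In the liver, BMP6 controls iron through hepcidin, and TGF-beta restrains the growth of hepatocytes.

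The libraries held 19904136 counts for MAEL WT and 20833332 for MAEL KO. MAEL had 1 count in MAEL WT and 0 in MAEL KO, so the targeted transcript was not detectable at this depth and could not check the labels. The paper reports that PLC8024 had the highest MAEL level of its lines, which it compared by Western blot and so as protein. It checked the knockout by Western blot and a DNA mismatch assay. All 12 hepatocyte lineage markers, among them ALB, APOA1 and HNF4A, had at least 10 counts in a library. Their summed FPKM, a count per gene length and library size, was 1591 in MAEL WT and 4551 in MAEL KO, and all 12 were higher in MAEL KO under TMM scaling. The part of this difference in the results below was not tested. Most markers of other liver cells were low. The 9 of stellate cells and fibroblasts summed to 2.09 and 1.42 FPKM with ACTA2 at 0 counts in both libraries, the 5 of endothelial cells to 2.11 and 2.80, and the 7 of macrophages and leukocytes to 33.1 and 22.4 with MARCO and CD3E at 0 in both. LYZ, or lysozyme, made up most of the last sum, with 1251 and 737 counts and 32.4 FPKM in MAEL WT, and PECAM1 most of the endothelial sum at 2.05 and 2.66 FPKM (348 and 392 counts).

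With 1 library per condition there is no replicate error, so no test was made and every difference below is one between these libraries. Log2 fold changes give MAEL KO relative to MAEL WT after TMM scaling of the counts, with 1 added to each normalized count. Each 95% interval is an exact Clopper-Pearson interval that covers counting error only. In such bulk RNA, fewer cells expressing a gene and less RNA per cell cannot be told apart.

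Of the 42 genes, 35 had at least 10 counts in a library and were compared. The other 7 were BMP3 and GREM1, at 0 counts in both libraries, LEFTY1 with 1 count in each, BMPR1B with 0 in MAEL WT and 1 in MAEL KO, LEFTY2 with 3 and 0, NOG with 2 and 4, and BMP7 with 6 and 4. They encode a BMP-family ligand (BMP3), a BMP ligand (BMP7), a type I BMP receptor (BMPR1B), the extracellular BMP traps Gremlin 1 and Noggin, and the Nodal inhibitors LEFTY1 and LEFTY2. Differences in these 7 genes were not detectable at this depth.

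Among the 35 genes, 3 were lower in MAEL KO by more than 2 on the log2 scale, and 0 were higher. This 4-fold threshold is only the fold part of the study's rule, which also set a limit on the adjusted p-value. Over all 17887 genes with at least 10 counts, 7.8% passed that threshold, 5.64% lower and 2.16% higher, or 7.32% and 1.5% with total counts in place of TMM. All 3, GDF15, BMP2 and TGFB2, were ligands. Past a log2 fold change of 1 there were 5 lower genes, again all ligands, and 1 higher gene, ID2. Among all genes 26.7% passed this mark, 16.5% lower and 10.2% higher. The other 29 stayed within 2-fold. With 5 added to each normalized count in place of 1, TGFB2 was at -1.85 and 2 genes were past 2. The median log2 fold change of the 35 genes was -0.12, against -0.04 over the 17887 genes.

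**Figure D1:**
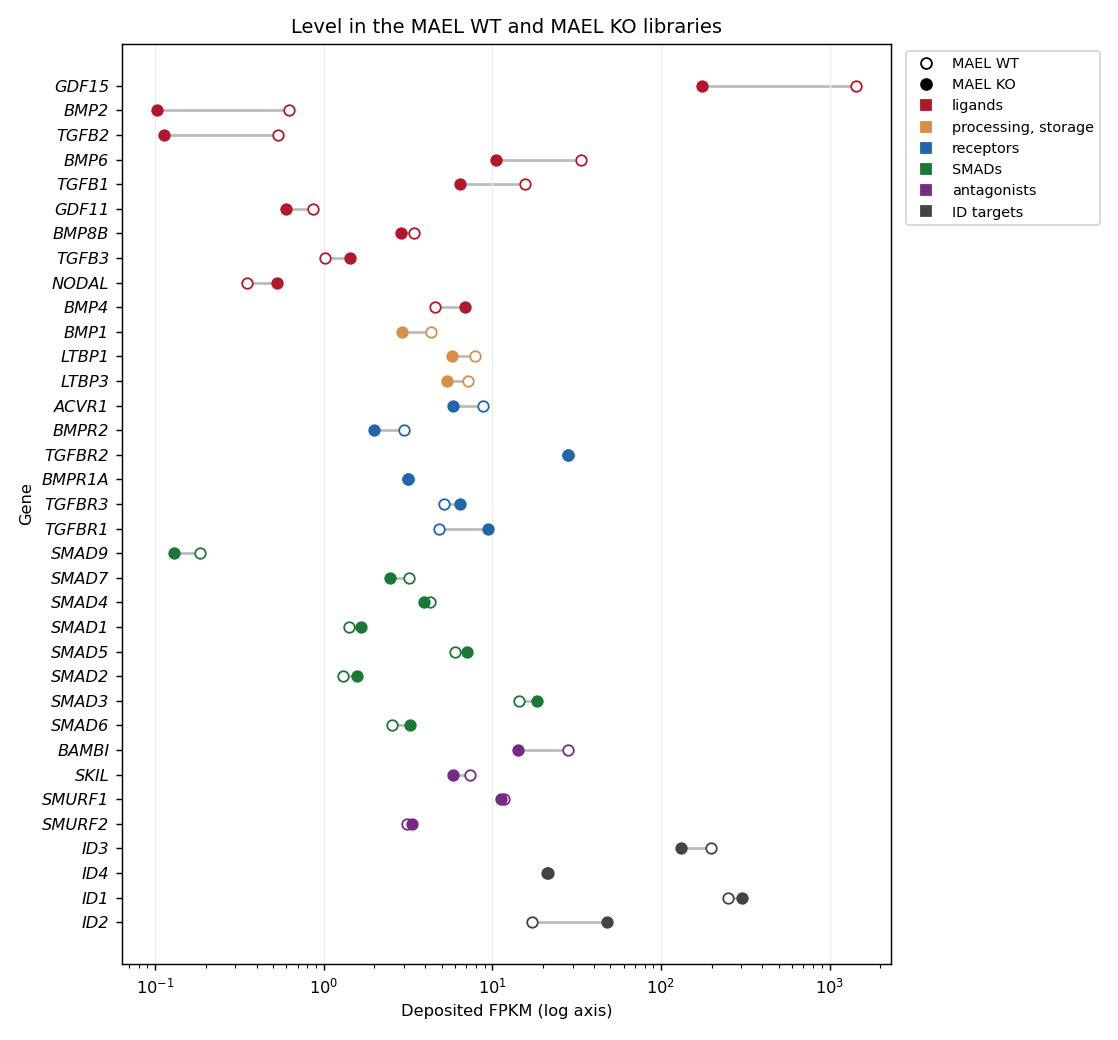
Deposited FPKM of the 35 genes with at least 10 counts, on a log axis, in MAEL WT (open circles) and MAEL KO (filled circles), with 1 row per gene and colours for roles. GDF15 stands apart at 1432 and 176 FPKM, while most receptors and SMADs keep their place between 1 and 30 FPKM.

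The 10 ligands compared spanned the widest range, with log2 fold changes from -3.02 to 0.58 and a median of -0.90. The median was -0.52 without GDF15, with at least 100 counts required and with no count filter. In MAEL KO 7 were lower and 3 were higher. GDF15, a distant family member released by stressed cells and known to curb appetite through the receptor GFRAL, was far above every other gene of the list in MAEL WT. It had 65370 counts in MAEL WT and 6975 in MAEL KO, or 1432 and 176 FPKM. Its log2 fold change was -3.02 (95% interval -3.05 to -2.98), 8.10-fold lower. The transcript took 0.328% of all MAEL WT counts and 0.0335% of all MAEL KO counts, and its place by FPKM among all genes moved from 15 to 209. The decrease in TMM-normalized counts ranked 1 among all 58735 genes, and also with DESeq2 size factors, whereas it ranked 3 with total counts. GFRAL had 0 counts in both libraries. The GDF15 locus spans 18374731 to 18389176 of chromosome 19 (GRCh38, plus strand) and has up to 3 exons in its GENCODE 29 transcripts.

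BMP6, the ligand by which the liver senses iron, was the most abundant BMP in MAEL WT. It had 2042 counts in MAEL WT and 554 in MAEL KO, or 33.6 and 10.5 FPKM, and its log2 fold change was -1.67 (95% interval -1.81 to -1.54). It lies on chromosome 6 from 7726797 to 7881422 and shares no exonic bases with another gene. BMP4, another BMP ligand, went the other way, from 310 to 401 counts, or 4.60 to 6.86 FPKM. Its log2 fold change was 0.58 (95% interval 0.36 to 0.80). BMP6 stood 7.30-fold above BMP4 by FPKM in MAEL WT and 1.53-fold above it in MAEL KO. BMP2, which signals through the same type I receptors as BMP4, had 49 and 7 counts, or 0.622 and 0.103 FPKM, a log2 fold change of -2.45 with a wide interval of -3.98 to -1.45. BMP8B had 363 and 263 counts, or 3.44 and 2.88 FPKM, and a log2 fold change of -0.25. Its near-identical neighbour BMP8A had 66 and 25 counts, and reads of the pair may be split between them.

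The TGF-beta ligands did not move together. TGFB1, the main TGF-beta of epithelial tumours, had 1114 counts in MAEL WT and 397 in MAEL KO, or 15.7 and 6.47 FPKM, a log2 fold change of -1.28 (95% interval -1.45 to -1.11). It lies on chromosome 19 from 41301587 to 41353911 on the minus strand, and 6.64% of its exonic bases are shared with HNRNPUL1 on the opposite strand, which had 4060 and 5376 counts. TGFB2 was rare, at 60 and 11 counts or 0.533 and 0.113 FPKM, with a log2 fold change of -2.15 (95% interval -3.31 to -1.30). It shares 26.6% of its exonic bases with TGFB2-OT1 on the same strand, which had 0 counts in both libraries. TGFB3 was slightly higher in MAEL KO, at 110 and 133 counts or 1.02 and 1.43 FPKM, a log2 fold change of 0.48 (95% interval 0.11 to 0.86). By FPKM, TGFB1 was 15.4 times TGFB3 in MAEL WT and 4.53 times TGFB3 in MAEL KO.

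The remaining ligands were low. GDF11, a relative of myostatin that signals through SMAD2 and SMAD3, had 163 and 98 counts, or 0.861 and 0.597 FPKM, and a log2 fold change of -0.52. NODAL, the embryonic ligand that LEFTY proteins inhibit, had 13 and 17 counts, or 0.351 and 0.530 FPKM, and its interval of -0.53 to 1.76 included no change. An opposite-strand gene shares 41.2% of NODAL's exonic bases and had 2 and 15 counts, so its few reads are uncertain. Summed over the 12 ligands the FPKM was 1493 in MAEL WT and 206 in MAEL KO, and without GDF15 it was 60.8 and 29.5.

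All 3 genes for processing and storage of ligands were modestly lower in MAEL KO. LTBP1 and LTBP3 encode latent TGF-beta binding proteins, which tether the latent ligand to the matrix. LTBP1 had 1270 and 805 counts, or 7.92 and 5.79 FPKM, with a log2 fold change of -0.45 (95% interval -0.58 to -0.32). LTBP3 had 1614 and 1046 counts, or 7.17 and 5.36 FPKM, with a log2 fold change of -0.42 (95% interval -0.53 to -0.30). BMP1, which despite its name is a protease that trims procollagens and cleaves LTBP1, had 708 and 410 counts, or 4.33 and 2.89 FPKM, and was at -0.58.

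**Figure D2:**
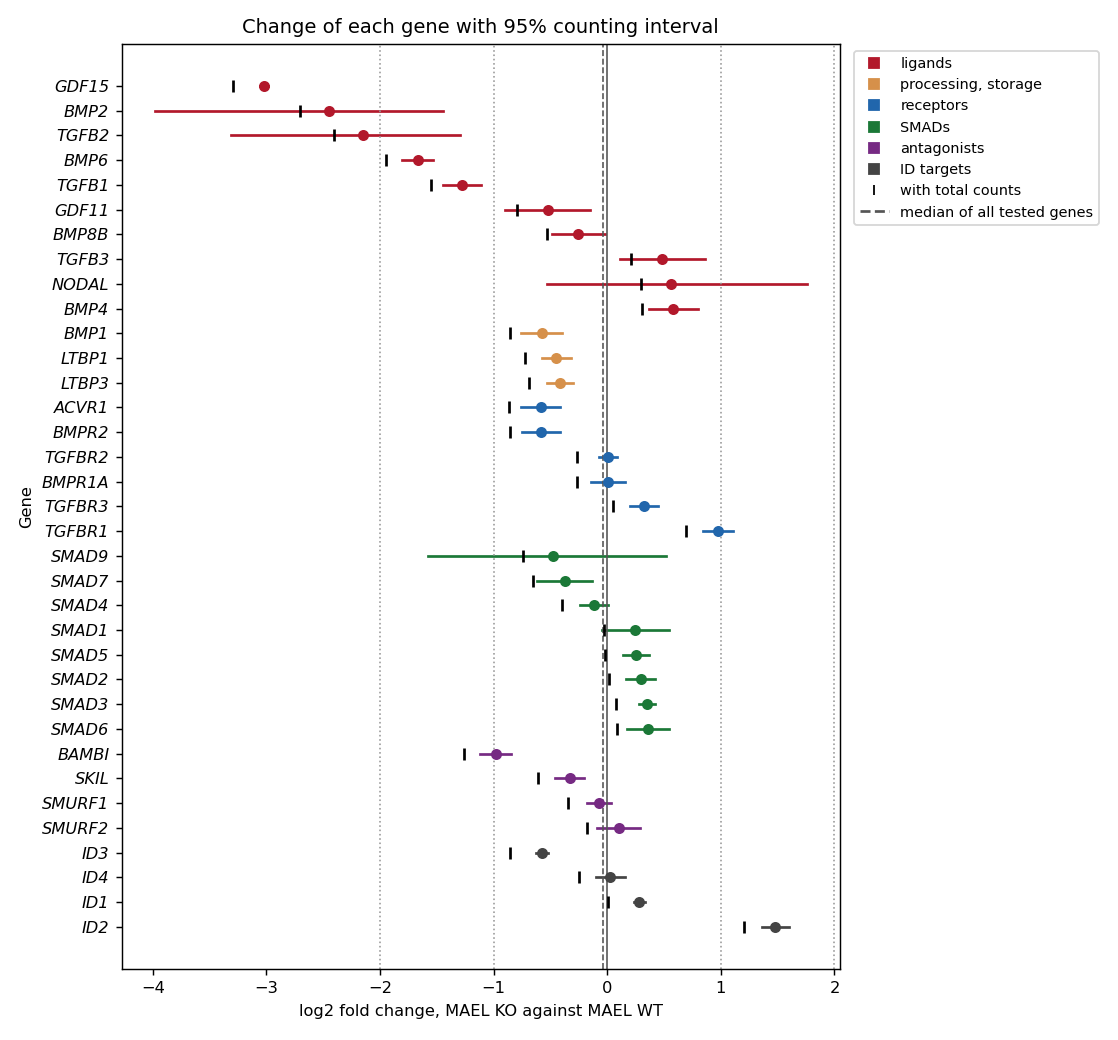
Log2 fold change in MAEL KO, relative to MAEL WT, of the 35 genes (points, TMM scaling) with 95% counting intervals (bars), the value with total counts (ticks), thresholds of 1 and 2 (dotted) and the median of all genes (dashed). The 5 genes past -1 are ligands, ID2 is the gene past 1 at 1.48, and total counts shift every gene lower by about the same amount.

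The 6 receptors compared had a median log2 fold change of 0.01 and none passed 1 in either direction, and BMPR1B was not detectable. TGFBR2, the type II receptor of TGF-beta and the most abundant receptor of the list, had 2899 and 2516 counts, or 28.2 FPKM in both libraries, a log2 fold change of 0.01 (95% interval -0.07 to 0.08). TGFBR1, its type I partner, had 722 and 1226 counts, or 4.82 and 9.45 FPKM, a log2 fold change of 0.97 (95% interval 0.84 to 1.11). TGFBR2 was 5.84 times TGFBR1 by FPKM in MAEL WT and 2.99 times in MAEL KO. TGFBR3, or betaglycan, which presents ligand to the kinase receptors, had 985 and 1065 counts, or 5.17 and 6.45 FPKM, and was at 0.32.

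On the BMP side, BMPR2, the type II receptor, had 779 and 450 counts, or 2.99 and 1.99 FPKM, a log2 fold change of -0.58. ACVR1, a type I receptor also called ALK2 that binds BMP6 and BMP7 with type II partners, had 771 and 444 counts, or 8.83 and 5.87 FPKM, a log2 fold change of -0.58 (95% interval -0.76 to -0.42). BMPR1A, the other type I BMP receptor detected, stayed level at 790 and 686 counts, or 3.16 and 3.17 FPKM, with an interval of -0.14 to 0.16. TGFBR1 was thus higher in MAEL KO under TMM scaling and with total counts, and ACVR1 and BMPR2 lower under both. The increase of TGFBR3 depended on the scaling, since with total counts it was at 0.05.

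The 8 SMADs ranged from -0.48 to 0.36 on the log2 scale with a median of 0.25. They are all the genes of the table's MH1 family with at least 10 counts in a library. SMAD3 was the most abundant, at 2880 and 3173 counts or 14.4 and 18.4 FPKM, with a log2 fold change of 0.35 (95% interval 0.28 to 0.42). SMAD2, the other SMAD of the TGF-beta branch, had 1030 and 1091 counts, or 1.29 and 1.58 FPKM, and was at 0.29. The table lists 36366 exonic bases for SMAD2, which lowers its FPKM. Of the BMP branch, SMAD5 had 1181 and 1218 counts, or 5.97 and 7.11 FPKM, and a log2 fold change of 0.25 (95% interval 0.14 to 0.37). SMAD1 had 186 and 191 counts, or 1.40 and 1.66 FPKM, and SMAD9 only 23 and 14 counts, or 0.184 and 0.129 FPKM, and the intervals of both included no change. SMAD4, the partner common to both branches, had 1232 and 981 counts, or 4.29 and 3.94 FPKM, with an interval of -0.24 to 0.00.

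The inhibitory SMADs, which block the receptors and are themselves induced by the pathway, went apart. SMAD6, which acts mainly on BMP signals, had 478 and 530 counts, or 2.55 and 3.26 FPKM, and was at 0.36. SMAD7, which acts on both branches, had 353 and 235 counts, or 3.21 and 2.46 FPKM, and was at -0.38 (95% interval -0.62 to -0.13). When total counts replaced the TMM factors, every log2 fold change was lower by about 0.28, the SMAD median became -0.02, and 6 of the 35 genes changed sign, namely TGFBR2, BMPR1A, SMAD1, SMAD5, SMURF2 and ID4. The small increases of SMADs therefore depend on the scaling.

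Of the 8 antagonists, 4 were compared and their log2 fold changes ran from -0.98 to 0.10. BAMBI, a decoy receptor without a kinase domain that is itself a target of the pathway, had 1428 and 624 counts, or 28.2 and 14.2 FPKM, a log2 fold change of -0.98 (95% interval -1.12 to -0.85). With total counts it was at -1.26 and passed the 2-fold mark. SKIL, a nuclear repressor of SMADs, had 1250 and 858 counts, or 7.34 and 5.82 FPKM, and was at -0.33. The ubiquitin ligases SMURF1 and SMURF2, which mark SMADs and receptors for breakdown, had intervals that included no change. SMURF1 had 1621 and 1334 counts, or 11.8 and 11.2 FPKM, and was at -0.07 (95% interval -0.18 to 0.03), while 11.7% of its exonic bases are shared with TRRAP on the opposite strand. SMURF2 had 477 and 442 counts, or 3.13 and 3.35 FPKM.

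The ID genes encode helix-loop-helix proteins without a DNA-binding region, which hold other bHLH factors off DNA, and they are classic targets of BMP-activated SMADs. They did not move as a group. ID2 had 832 counts in MAEL WT and 2003 in MAEL KO, or 17.3 and 47.9 FPKM, a log2 fold change of 1.48 (95% interval 1.36 to 1.60), 2.78-fold higher. ID3 had 7755 and 4490 counts, or 197 and 132 FPKM, a log2 fold change of -0.58 (95% interval -0.63 to -0.52). ID1 was the most abundant by FPKM, at 6767 and 7107 counts or 251 and 304 FPKM, and its log2 fold change was 0.28, or 0.00 with total counts. ID4 had 1082 and 953 counts, or 21.1 and 21.4 FPKM, and an interval of -0.10 to 0.15. ID3 was 11.4 times ID2 by FPKM in MAEL WT and 2.75 times ID2 in MAEL KO. ID2 lies on chromosome 2 from 8678845 to 8684453, and 1.72% of its exonic bases are shared with the antisense gene ID2-AS1, which had 65 and 28 counts.

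Since the ID genes are targets of BMP-activated SMADs and differed from each other, the 250 bases before their RefSeq start sites (GRCh38.p14) are shown, with those of GDF15, the gene with the largest decrease. Capitals mark CAGAC, known SMAD-binding letters, searched on both strands along with GGCGCC, a GC-rich variant bound by BMP-activated SMADs. Each is written 5′ to 3′ on the strand of its gene.
ID1 (chr20:31605039-31605288, plus strand): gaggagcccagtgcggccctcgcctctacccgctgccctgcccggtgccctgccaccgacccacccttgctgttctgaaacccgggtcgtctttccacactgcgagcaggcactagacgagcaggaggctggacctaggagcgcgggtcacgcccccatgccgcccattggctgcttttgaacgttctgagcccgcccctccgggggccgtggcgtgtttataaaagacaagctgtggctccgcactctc
ID2 (chr2:8681806-8682055, plus strand): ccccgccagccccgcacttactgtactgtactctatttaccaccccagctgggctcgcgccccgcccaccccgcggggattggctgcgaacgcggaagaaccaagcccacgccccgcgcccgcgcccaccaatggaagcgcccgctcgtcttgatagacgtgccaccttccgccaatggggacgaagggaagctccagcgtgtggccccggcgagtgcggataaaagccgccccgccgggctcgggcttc
ID3 (chr1:23559502-23559751, minus strand): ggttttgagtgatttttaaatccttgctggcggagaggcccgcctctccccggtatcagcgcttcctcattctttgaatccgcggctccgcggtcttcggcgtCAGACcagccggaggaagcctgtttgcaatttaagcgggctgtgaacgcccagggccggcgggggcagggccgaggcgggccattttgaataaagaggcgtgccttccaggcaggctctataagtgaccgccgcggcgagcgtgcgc
ID4 (chr6:19837120-19837369, plus strand): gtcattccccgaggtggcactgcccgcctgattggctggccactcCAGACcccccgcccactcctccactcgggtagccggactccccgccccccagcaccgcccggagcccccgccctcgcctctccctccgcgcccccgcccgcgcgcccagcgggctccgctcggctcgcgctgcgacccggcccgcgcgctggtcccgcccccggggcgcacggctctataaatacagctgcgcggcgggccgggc
GDF15 (chr19:18385908-18386157, plus strand): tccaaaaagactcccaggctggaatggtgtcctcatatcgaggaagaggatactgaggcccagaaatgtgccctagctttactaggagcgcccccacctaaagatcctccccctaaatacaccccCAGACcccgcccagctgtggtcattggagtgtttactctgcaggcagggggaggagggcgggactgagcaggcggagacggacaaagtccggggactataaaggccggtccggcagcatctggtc

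CAGAC stands 147 bases before the start of ID3, 205 before that of ID4 and 125 before that of GDF15, each time on the strand of the gene. Neither motif is in the windows of ID1 or ID2, and GGCGCC is in none of the 5. CAGAC was present in 38.0% of all 35116 windows of this length in the table and in 28 of the 65 windows, or 43.1%, of the 35 list genes found there. GGCGCC was present in 16.4% of all windows and in 13 of the 65. The table held no window for BMP1, BMP2, BMP3, BMP7, LEFTY1, LEFTY2 and NOG. Windows of a gene can overlap, and a match is not a measured binding site. Bases farther from the start were not searched, so an absent motif does not mean that a gene lacks SMAD sites.

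The ratio of 2 genes within a library does not depend on how the libraries are scaled to each other. For 14 pairs chosen after the values had been seen, the change of this ratio was computed with a log-normal 95% interval of counting error. BMP4 gained on BMP6 by 2.25 on the log2 scale, or 4.77-fold. TGFB3 gained on TGFB1 by 1.76 (95% interval 1.36 to 2.16), and TGFBR1 on TGFBR2 by 0.97 (95% interval 0.81 to 1.12). Among the targets, ID2 gained on ID3 by 2.06 (95% interval 1.93 to 2.18) and ID1 gained on ID3 by 0.86. SMAD6 gained on SMAD7 by 0.74 (95% interval 0.44 to 1.03), and BMPR1A gained on ACVR1 by 0.59 and on BMPR2 by 0.59. SMAD5 gained on SMAD4 by 0.37 (95% interval 0.21 to 0.54). In contrast, the intervals of SMAD1 to SMAD5 (-0.32 to 0.31), SMAD3 to SMAD2 (-0.09 to 0.20) and SMURF2 to SMURF1 (-0.04 to 0.39) included no change.

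**Figure D3:**
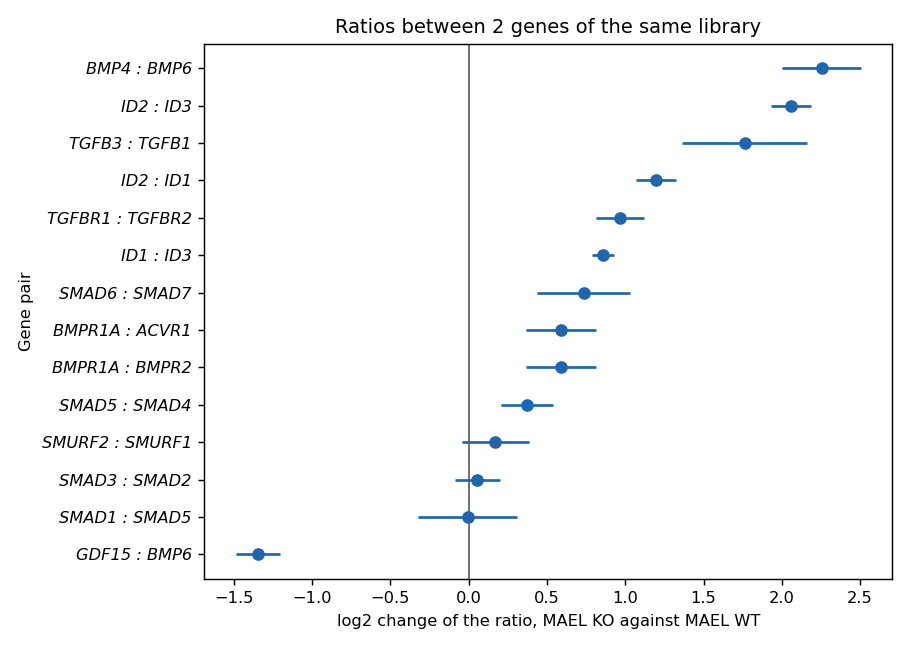
Log2 change, from MAEL WT to MAEL KO, of the count ratio of the first gene to the second for 14 pairs (points), with 95% counting intervals (bars). The ligand and ID pairs lie far from 0, up to 2.25 for BMP4 to BMP6, while SMAD1 to SMAD5 is at -0.01.

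A further list of 92 pathway genes was taken by function, with earlier results of these data known. It had 53 genes with at least 10 counts in a library. Of these, 4 were lower and 1 was higher past a log2 fold change of 2, against 5.64% and 2.16% of all genes. There were 8 lower and 2 higher past 1, against 16.5% and 10.2% of all genes. The median of the 53 genes was -0.03, and with total counts -0.30. The higher gene past 2 was HJV, the BMP co-receptor hemojuvelin, with only 4 and 19 counts. It was at 2.18 (95% interval 0.87 to 4.47), and at 1.94 with total counts. RGMB, a BMP co-receptor related to HJV, was lower, with 306 and 61 counts and a log2 fold change of -2.10 (95% interval -2.54 to -1.72). Among the other ligands, AMH was highest with 812 and 1003 counts, at 0.51, and BMP8A lowest at -1.16, with GDF7 at -0.18. Among the other receptors ENG, or endoglin, was at -0.80 with 57 and 28 counts, and among the other antagonists FSTL1 was at -0.88 and CRIM1 at 0.66. HAMP, which encodes hepcidin, the product of BMP6 and HJV signalling in hepatocytes, had 0 counts in MAEL WT and 5 in MAEL KO, too few for a comparison.

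Genes known to respond to TGF-beta were divided. Of 12 compared, 5 were higher and 7 lower, or 3 and 9 with total counts. Past a log2 fold change of 1, 3 were lower and 1 was higher, against 16.5% and 10.2% of all genes. CDKN2B, a cell cycle inhibitor, was lower, with 1402 and 215 counts and a log2 fold change of -2.49 (95% interval -2.71 to -2.29). COL1A1, a fibrillar collagen, had 92 and 11 counts and was at -2.75. NEDD9, an adhesion scaffold, had 517 and 1038 counts and was at 1.21, and ANGPTL4 was at 0.82. CTGF was at 0.38, whereas TGFBI, a matrix protein named for its induction by TGF-beta, was at -1.45 with 10358 and 3281 counts. Of the BMP targets outside the list, HEY1 had 143 and 44 counts and was at -1.47, MSX1 had 10 and 4, and ATOH8 had 3 in each.

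Signal regulators and ligand activators moved less. Of the 21 regulators compared, 16 were higher and 5 lower, with a median of 0.28. With total counts 11 were higher and 10 lower, with a median of 0.00. PPP1R15A, a phosphatase subunit that acts on type I receptors and also in the stress response, was the exception past 2, with 4497 and 757 counts and a log2 fold change of -2.36 (95% interval -2.47 to -2.25). NEDD4L, a ubiquitin ligase for SMADs, was highest at 0.80, followed by LEMD3 at 0.77, and ZFYVE9, which presents SMADs to the receptor, was at -0.39. Of the activators, LTBP4 was lowest, with 4316 and 1791 counts and a log2 fold change of -1.06, followed by LTBP2 at -0.66, while PCSK6, a proprotein convertase, was highest at 0.97. FURIN, the convertase that cleaves most pro-ligands of the family, had 17024 and 14431 counts and an interval of -0.06 to 0.00.

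**Figure D4:**
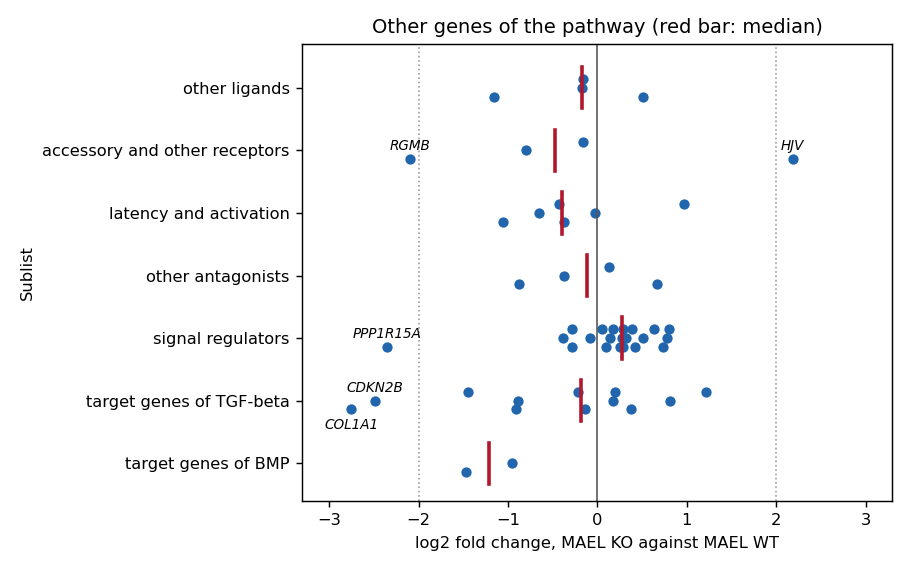
Log2 fold change in MAEL KO, relative to MAEL WT, of the 53 compared genes of the further list (points, spread vertically for legibility), by sublist, with the median of each sublist (red bars) and thresholds of 2 (dotted). The 5 genes past 2 are named, and the 21 signal regulators have a median of 0.28.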

How the data were processed

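The labels put 1 library in each of the groups MAEL WT and MAEL KO. Total RNA was used for Illumina libraries. Raw counts per gene were deposited by the authors without normalization. Submitters' processing notes list HISAT2 2.0.5 and featureCounts 1.5.0-p3 and the build hg19, but 58724 of the 58735 genes have the start and end of GENCODE 29 on GRCh38, so coordinates are GRCh38 here. Whether counting used strand is not given in the sources used here, so opposite-strand reads cannot be separated. FPKM values were deposited by the authors, who also rescaled library sizes. All 4 columns of sample values were used.

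Counts were scaled by TMM (factors 1.10044 and 0.90873) in edgeR 4.0.16 under R 4.3.3, and 1 was added to normalized counts. Genes with at least 10 counts in a library were compared by fold alone, at log2 thresholds of 2 and 1. The study used 2 together with a limit on the adjusted p-value. The floor of 3 counts equals 0.151 and 0.144 CPM. Reads carry no molecular identifiers, so intervals cover counting error only. Python 3.11.15, SciPy 1.17.1 and matplotlib 3.10.9 were used, and the steps were tested on simulated data. Size factors of DESeq2 1.42.0, total counts, FPKM ratios with 0.01 added, other prior counts and other filters were the alternatives. The gene list, its roles and the further list were chosen with earlier results of these data known. Every gene of the list is named, and fold changes were due for those past 1 and for the 2 highest by FPKM of each role, with others added after their values were seen. Of the further list, genes past 2 and up to 2 at each end of each sublist are named. Results for 2 genes of the further list are not reported here, and its counts and medians leave them out. The protein comparison planned for the SMAD and ID genes was not made here.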

Additional observations from a re-analysis of the deposited data

How the results depend on the processing

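No paired analysis was possible because each group has 1 library, and leaving out a library was not possible for the same reason. DESeq2 size factors and FPKM ratios left all counts within 1.5 times and all list medians inside their spread. Both scale the libraries almost as TMM does, with a median of all genes of -0.042 against -0.038. Restriction to protein-coding genes removed none of the compared list genes, so it could not change their counts or medians. With at least 100 counts required, which removes BMP2, TGFB2 and 2 other genes, 1 gene of the list was lower past 2 and 3 past 1, against 2.35% and 9.16% of all genes under that filter, and the ligand median was -0.52. Without a count filter, 2 genes of the list were higher past 1, against 17.6% of all genes. The added gene was BMPR1B, with 1 count. The further list then had 4 higher and 7 lower past 2, against 3.42% and 5.9% of all genes. Past 1 it had 8 higher and 14 lower, against 17.6% and 19.1%. Its number higher past 2 was 0 with total counts, with a prior count of 5 and with at least 100 counts. The shares of all genes were 1.5%, 1.4% and 1.54%. Past 1, the further list had 1 higher with total counts and 1 with at least 100 counts, against 6.56% and 9.23% of all genes. It had 13 lower with total counts, against 22.5%. Total counts moved the median of the processing and storage genes to -0.72, of the further list to -0.30 and of all genes to -0.31, and took the share of higher genes among all genes past 1 from 38.2% to 22.6%, and past 2 from 27.7% to 17.0%. They also made the median of receptors -0.27, of SMADs -0.02 and of ID genes -0.12. Total counts took 28 of the 35 single-gene values of the list out of their counting interval. No other alternative did so for any gene. Filters cannot change a single-gene value, however, and DESeq2 size factors and FPKM ratios nearly repeat the TMM scaling. With a prior count of 5, TGFB2 was at -1.85 and 2 genes were lower past 2, against 2.87% of all genes. Leaving out GDF15, tried after seeing the data, took the ligand median from -0.90 to -0.52. Depth limits BMP2, TGFB2, NODAL and SMAD9 most.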

Other observations

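Beyond the SMADs and ID genes, the deposited tables mark transcription factor families, and the ID genes fall in the bHLH family, some of whose DNA-binding members, above all the E proteins, are partners that ID proteins hold back. Of the 55 bHLH genes with at least 10 counts in a library, 7 were lower in MAEL KO past a log2 fold change of 2 and 11 past 1, against 5.64% and 16.5% of all genes compared, and ID2 was the single gene higher past 1, against 10.2% of all genes. Without the 4 ID genes the other 51 had a median of -0.27 (35 lower and 16 higher), against -0.04 over all genes compared. With 1 library per condition this is a description of these libraries, and a link between ID2 and these levels was not tested. The other scalings and filters were not applied to this family.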
